A study of Homo sapiens with 4 samples.

Results

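Adenosine deaminases acting on RNA (ADARs) turn adenosine into inosine in double-stranded RNA, and ribosomes read inosine as guanosine. In a small set of transcripts the edited base lies in coding sequence and recodes the protein, and in many more it lies in inverted repeats of introns and untranslated regions. The transcripts described here are 9 reported targets of this editing: AZIN1, FLNA, COPA, CYFIP2, BLCAP, NEIL1, IGFBP7 and GLI1, which are edited in coding sequence, and CTSS, which is edited in a repeat of its 3' untranslated region. ADAR is the main editor of the AZIN1 and NEIL1 sites, and its paralog ADARB1 that of the FLNA and CYFIP2 sites. The arrays measured how much of each transcript was present. They did not read the edited base, so no statement about editing follows from them.

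Gene-level intensities came from 4 exon arrays of human cell lines, 1 per group. K562 cells come from a chronic myeloid leukaemia and have erythroid traits, and HepG2 is labelled as the hepatocellular carcinoma line of that name. The groups were K562 with a plasmid for siRNA against ADAR1 (ADARkd), K562 with a scrambled siRNA (SCR), HepG2 with ADARkd and HepG2 with SCR. All 4 cell populations were stably transfected, the lines grew in different media, and the labels do not say whether a population was a clone or a pool. Of the 9 genes, chosen by name with the brightest transcript cluster taken for each, 7 had a cluster annotated to that gene alone, out of 14232 such genes in all. NEIL1 shares its only cluster with another gene symbol, and no cluster used here carried the symbol FLNA, so neither was analysed.

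Median intensities were close on the 4 arrays, at 36.1 to 37.0. Levels are given as log2 intensity, on which 1 unit is a doubling. Genes were kept in a line where their mean over that line's arrays reached the median of all genes, which lay at 5.28 in K562 and 5.31 in HepG2. Below that level background can set the value, and signal over background was not analysed here. AZIN1, COPA and BLCAP were kept in both lines, CTSS in K562 alone, IGFBP7 in HepG2 alone, and CYFIP2 and GLI1 in neither. The identity of the arrays labelled HepG2 is uncertain: of 11 measured hepatocyte markers 1, CPS1, was kept there, and ALB, which encodes albumin, stood at 2.97 in ADARkd and 3.04 in SCR. Of the erythroid markers all 6 measured ones passed in K562, and 0 of 6 lymphocyte markers passed in either line. Since there was 1 array per group, differences within a line lack any replicate error, the number of arrays limits the precision, and each is given as a value. In these bulk samples fewer cells that express a gene and less RNA per cell cannot be told apart.

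ADAR itself was lower in both knockdown arrays. In K562 it stood at 6.78 in ADARkd, against 7.99 in SCR, which leaves 43.2% of the SCR intensity. For HepG2 the level was 7.27 in ADARkd, against 8.96 in SCR, which leaves 31.0%. The paralog ADARB1 differed between the arms by -0.16 in K562 and by 0.11 in HepG2, where quantile and loess normalization turned the sign (-0.04 and -0.01). ADARB2, for which no editing activity is known, differed by 0.27 in K562, below the filter level, and by -0.74 in HepG2.

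**Figure D1:**
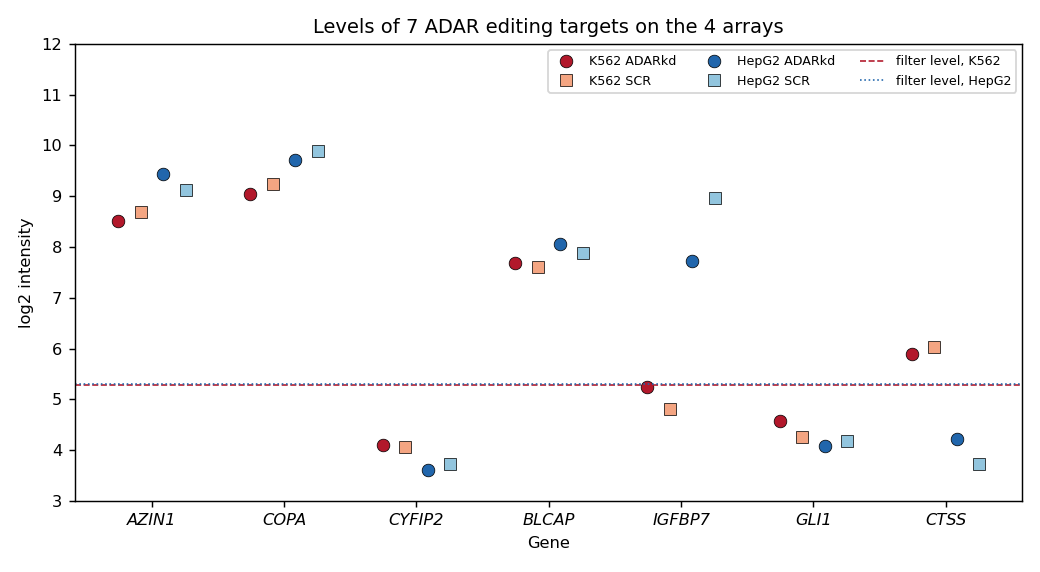
Log2 intensity (y axis) of the 7 measured editing targets (x axis) on each of the 4 arrays; circles are ADARkd, squares SCR, red K562 and blue HepG2, and the lines mark the filter levels of 5.28 and 5.31. IGFBP7 and CTSS are the members whose arrays lie more than 1 log2 unit apart, between the lines for both and between the arms of HepG2 for IGFBP7.

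Most of these transcripts differed little between knockdown and scrambled arrays, and IGFBP7 on the arrays labelled HepG2 was the exception. IGFBP7 encodes a secreted protein that binds insulin-like growth factors weakly and is deposited in the matrix, and its transcript is edited near the start of the coding sequence. Its level on these arrays was 7.72 in ADARkd, against 8.97 in SCR. In intensity these are 211 in ADARkd and 502 in SCR, so 42.1% of the SCR intensity was left, or 2.38-fold less. The log2 difference of -1.25 ranked as number 69 from the lowest of 7116 kept genes. In either direction 2.05% of kept genes were at least as far apart, and 1.57% were at least 2-fold lower. Under quantile normalization, loess normalization or an offset it ran from -1.39 to -1.19. In K562 the IGFBP7 transcript stood at 5.25 in ADARkd and 4.81 in SCR, both under the filter level. That difference, 0.44, has the opposite sign and lies inside the central 90% of genes under the filter in K562, which ran from -0.24 to 0.46. It lay above the 95th percentile of those genes under quantile normalization (0.46, against 0.35), loess (0.50, against 0.33) and the offset (0.29, against 0.23).

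IGFBP7 is abundant in fibroblasts and vessel walls, and markers of fibroblasts and stroma differed in both directions on the arrays labelled HepG2. Of 10 measured markers 7 were kept there: COL3A1 (-2.42), LOX (-2.18), FN1 (-1.80), FAP (-1.66) and COL1A1 (-1.12) were lower in ADARkd by at least 1.5-fold, and LUM (0.78) and DCN (0.64) higher. Of all kept genes there, 5.73% were at least 1.5-fold lower and 12.4% higher. The ADARkd side of COL3A1, FAP and COL1A1 lay under the filter level, where background can set the value. With an offset of 16 added before log2 these 3 differed by -1.95, -1.18 and -0.85. FN1 was at -1.03 with the mean of its transcript clusters in place of the brightest, and DCN was within 1.5-fold after quantile normalization (0.51). The log2 of the summed intensity of all 10 was 10.81 in ADARkd and 10.83 in SCR. Such a sum is weighted to the brightest genes and hides that kept markers moved both ways. In K562 0 of the 10 were kept, and the same sums were 7.48 in ADARkd and 7.46 in SCR. The part of these markers in the IGFBP7 difference was not tested.

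AZIN1 and COPA were bright on all 4 arrays and moved by less than 1.5-fold in each line. AZIN1, antizyme inhibitor, shields ornithine decarboxylase from antizyme and so favours polyamine synthesis, and a serine of it becomes glycine on editing. It stood at 8.51 in ADARkd and 8.68 in SCR in K562, a difference of -0.17. The HepG2 arrays had it at 9.43 in ADARkd and 9.12 in SCR, a difference of 0.31, so the lines gave opposite signs. These signs held under quantile and loess normalization with smaller sizes, at -0.09 and -0.10 in K562 and 0.21 and 0.15 in HepG2. Of the kept genes, 36.9% in K562 and 44.2% in HepG2 were at least as far apart. COPA, the alpha subunit of the coatomer that coats vesicles returning from the Golgi to the endoplasmic reticulum, stood at 9.05 in ADARkd and 9.24 in SCR in K562. In HepG2 it stood at 9.71 in ADARkd and 9.90 in SCR. COPA differed by -0.19 in each line without further normalization. Under quantile normalization the COPA differences were -0.13 in K562 and -0.32 in HepG2, and under loess -0.12 and -0.35. Without further normalization 31.0% and 63.8% of kept genes in K562 and HepG2 were at least as far apart.

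BLCAP, a short membrane protein first described in bladder cancer, stood at 7.69 in ADARkd and 7.61 in SCR in K562, a difference of 0.08 that was 0.18 under quantile and 0.16 under loess normalization. Its HepG2 levels were 8.06 in ADARkd and 7.88 in SCR, a difference of 0.18 that was 0.03 under quantile and under loess normalization. BLCAP was higher in ADARkd in both lines, but 67.0% and 65.0% of kept genes in K562 and HepG2 were at least as far apart.

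CTSS encodes cathepsin S, a lysosomal protease that trims the invariant chain in antigen-presenting cells, and editing of its Alu repeat has been tied to binding of the stabilising protein HuR in endothelial cells. In K562 it stood at 5.89 in ADARkd and 6.04 in SCR, a difference of -0.15 that 42.3% of kept genes reached or passed and that was -0.08 under quantile normalization. On the arrays labelled HepG2 it stood at 4.21 in ADARkd and 3.72 in SCR. Both values lie under the filter level, and the difference of 0.49 was 0.24 with an offset of 16 added before log2. In the same line genes under the filter had a central 90% of -0.52 to 0.41, so CTSS lay above it.

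The 2 dimmest members stayed under the filter level on every array. CYFIP2, a subunit of the WAVE complex that drives branching of actin, stood at 4.09 in ADARkd and 4.06 in SCR in K562. On the arrays labelled HepG2 it stood at 3.61 in ADARkd and 3.73 in SCR. Its K562 difference of 0.03 was -0.11 under quantile and -0.12 under loess normalization. GLI1, a transcription factor and target gene of hedgehog signalling, stood at 4.57 in ADARkd and 4.26 in SCR in K562, and at 4.09 in ADARkd and 4.18 in SCR on the arrays labelled HepG2. The GLI1 difference of 0.30 in K562 lies inside the central 90% of genes under the filter there, whose median was 0.13, and it was 0.21 under quantile and 0.18 under loess normalization. These values do not show whether CYFIP2 and GLI1 were expressed.

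**Figure D2:**
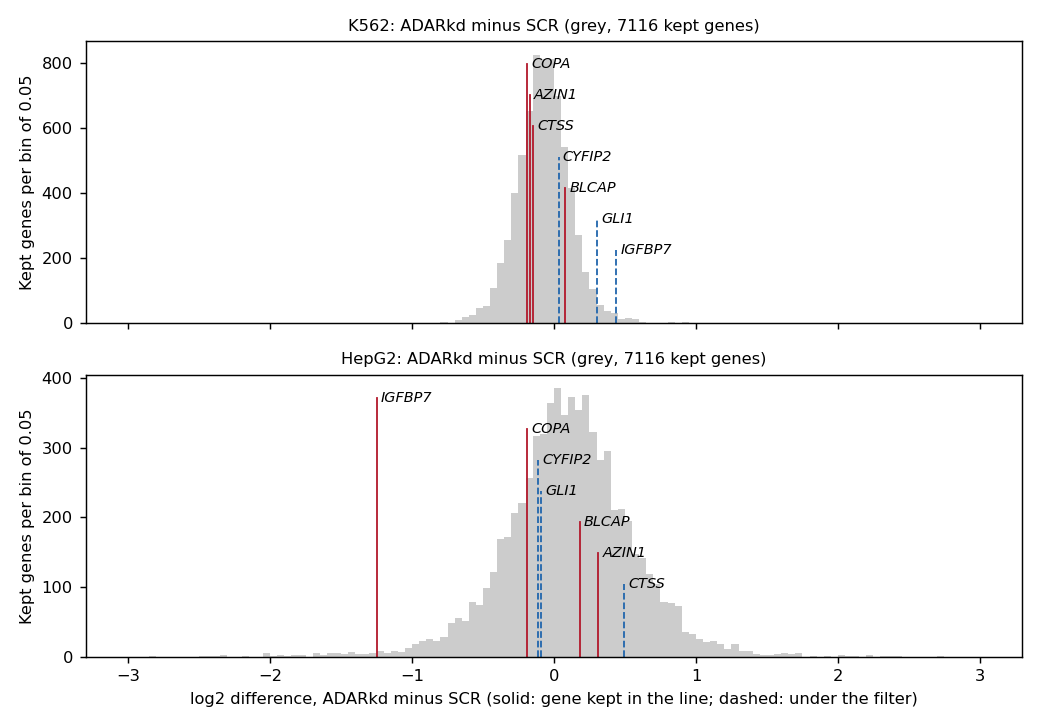
Log2 difference of ADARkd minus SCR (x axis) in K562 above and HepG2 below; grey bars count kept genes per bin of 0.05 (y axis, values past 3 drawn at the edge), and lines mark the 7 editing targets, solid where kept and dashed where under the filter. The kept targets lie between the 5th and 95th percentiles of the kept genes except IGFBP7 in HepG2 at -1.25, and in K562 the dashed lines of IGFBP7 (0.44) and GLI1 (0.30), both under the filter, lie above the 95th percentile of the kept genes, 0.22.

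Counted together, 0 of the 4 targets kept in K562 lay 1.5-fold or more apart, where 1.03% of 7116 kept genes did. On the arrays labelled HepG2, 1 of 4 was, IGFBP7, where 18.1% of 7116 kept genes were. The median difference of the kept targets was -0.16 in K562 and -0.0037 in HepG2, beside -0.07 and 0.11 over all kept genes. The targets' medians depend on the scaling, at -0.09 in K562 and -0.14 in HepG2 under quantile normalization and -0.11 and -0.16 under loess. Quantile normalization moves the medians of all kept genes to -0.0010 and 0.01, and it shifts the balance of all genes at least 1.5-fold apart. In K562 those were 19 higher and 54 lower, against 41 and 26 after quantile normalization and 25 and 39 after loess. In HepG2 they were 879 higher and 408 lower, against 602 and 539 after quantile normalization and 635 and 543 after loess.

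The shared effect asked whether a transcript moved the same way in both lines. It was fitted over the 6204 genes kept in both lines, with line as a term, and 0 genes passed (0% by limma at an adjusted p under 0.05). At an unadjusted limma p under 0.05 there were 179 of the 6204 genes, a share smaller than 0.05. Of these, 57 were higher and 122 lower in ADARkd, and after quantile normalization 94 were higher and 128 lower. Of the targets, 3 could be fitted. The AZIN1 effect was 0.07 ± 0.21 on the log2 scale (SE; limma adjusted p = 0.9996), that of BLCAP 0.13 ± 0.21 (limma adjusted p = 0.9996) and that of COPA -0.19 ± 0.18 (limma adjusted p = 0.9996). ADAR, at -1.45 ± 0.22, did not pass either (limma adjusted p = 0.871). With no filter all 7 targets entered the fit, the effect of IGFBP7 was -0.41 ± 0.35 and that of CTSS 0.17 ± 0.22, and again 0 targets passed.

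No test was possible of whether the knockdown differences differed between the lines, since each line had 1 array per arm. The signs of the lines' differences were opposite for 5 of the 7 targets: AZIN1, CYFIP2, IGFBP7, GLI1 and CTSS. Among genes kept in both lines the signs were opposite for 52.9%. Of the 3 targets kept in both lines only AZIN1 was among these. CYFIP2, IGFBP7, GLI1 and CTSS were under the filter in at least 1 line, so that share does not cover them. Of genes under the filter, 74.8% had a positive difference in K562 and 41.4% in HepG2.

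**Figure D3:**
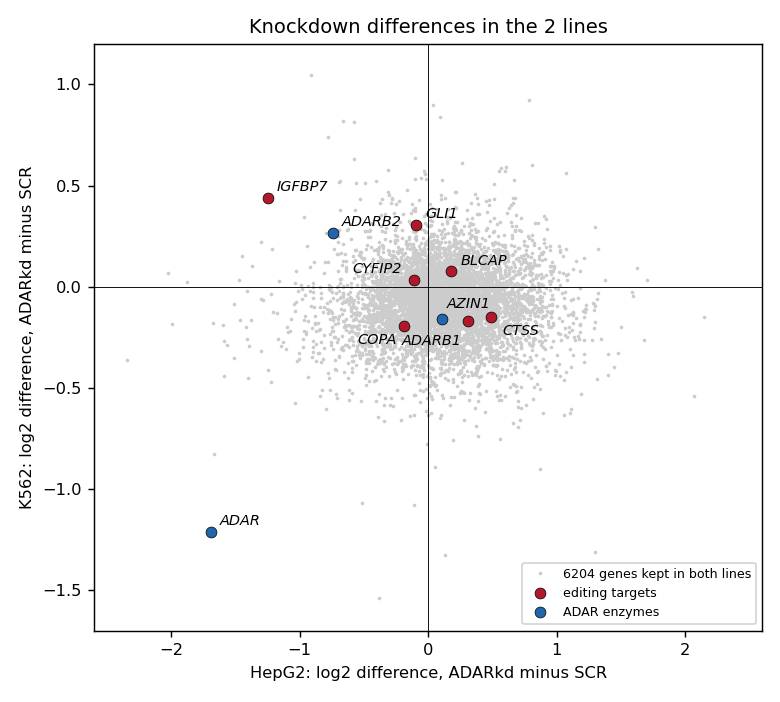
Log2 difference of ADARkd minus SCR in K562 (y axis) against HepG2 (x axis) for 6204 genes kept in both lines (grey, 2 outside the axes), the 7 editing targets (red) and the 3 ADAR family genes (blue). ADAR lies low in both lines, IGFBP7 low in HepG2 alone, and the other targets near the origin.

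Between the lines the targets' levels did not overlap: for all 7 both K562 arrays lay on the same side of both HepG2 arrays, by gaps of 0.08 (GLI1) to 2.48 (IGFBP7). The same held for 76.8% of genes kept in either line. CYFIP2 and GLI1, kept in neither, fall outside that share and lie where background can set the value. IGFBP7 stood at 5.25 and 4.81 in K562, against 7.72 and 8.97 in HepG2, in each case ADARkd before SCR. The K562 minus HepG2 difference was -3.32 ± 0.37 on the log2 scale (SE; limma adjusted p = 0.000446), a 9.98-fold higher level on the arrays labelled HepG2. CTSS ran the other way, at 5.89 and 6.04 in K562, against 4.21 and 3.72 in HepG2. Its difference was 2.00 ± 0.25 (limma adjusted p = 0.00069), or 4.0-fold higher in K562. Both passed an adjusted p under 0.05 with at least a 2-fold difference, as did 25.1% of 8028 genes kept in either line, 10.3% being higher in K562 and 14.7% higher in HepG2. Each was kept through its bright line alone and had to differ to enter the fit that way, and background can set its dim side, so the sizes are uncertain and the calls are given as a description of these levels.

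AZIN1 was lower in K562 by a difference of -0.67 ± 0.21 (limma adjusted p = 0.036) and COPA by -0.66 ± 0.17 (limma adjusted p = 0.0209), both under 2-fold, and 42% of genes had an adjusted p under 0.05 at any fold. BLCAP differed by -0.32 ± 0.20 and did not pass (limma adjusted p = 0.24). With no filter CYFIP2 differed by 0.41 ± 0.18 (limma adjusted p = 0.11) and GLI1 by 0.28 ± 0.19 (limma adjusted p = 0.272). The lines also differed in ADARB1, which stood at 5.72 and 5.88 in K562, against 8.26 and 8.15 in HepG2, a difference of -2.40 ± 0.21 (limma adjusted p = 0.000122). Within a line the arrays stand for different arms and are no replicates, and the fit has 1 residual degree of freedom, so these errors and p-values are approximate.

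By 4-array profile, the genes nearest to IGFBP7 among 8027 genes kept in either line were FARP1 at a Euclidean distance of 0.32 and the complement protease C1S at 0.34. Profiles were centred on each gene's own mean, in log2 units. FARP1 differed by -1.16 and C1S by -1.66 between the arms of HepG2. Nearest to CTSS were WDCP at 0.18 and CDC14A at 0.18. In K562 both arrays of IGFBP7, FARP1 and C1S lay under the filter level, as did both HepG2 arrays of CTSS and CDC14A. Background can set those values, so the near profiles are given as a description only. The other targets spanned under 1 log2 unit, and no near profiles are given for them.

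Other transcripts reported as edited were set beside the targets. Of 22 listed as edited in coding sequence, 15 were measured and 5 kept in each line, and 0 were at least 1.5-fold apart in either line, beside 1.03% of kept genes in K562 and 18.1% in HepG2. In HepG2 1 gene, CCNI, passed 1.5-fold under quantile (-0.59) and loess normalization (-0.61). Their medians were -0.05 in K562 and 0.29 in HepG2, the K562 value being 0.0078 under quantile normalization. CCNI, a cyclin, differed by -0.0064 in K562 and -0.45 in HepG2, and PODXL, a cell surface sialomucin, by -0.36 and 0.42. Most of the rest, such as the potassium channel KCNA1, encode neuronal channels and receptors and lay under the filter. Of 14 transcripts listed as edited in repeats of the 3' untranslated region, 12 were measured, 10 kept in K562 and 11 in HepG2. In K562 0 were 1.5-fold apart, and the lowest, NICN1, differed by -0.58. On the arrays labelled HepG2, SLC7A2, a transporter of cationic amino acids, differed by 1.04 and PSMB2, a proteasome subunit, by 0.78. MDM2, which targets p53 for degradation, followed with 0.51 and the aryl hydrocarbon receptor AHR with 0.45. Thus 2 of 11 were at least 1.5-fold higher and 0 lower, beside the same 12.4% and 5.73% of all kept genes.

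**Figure D4:**
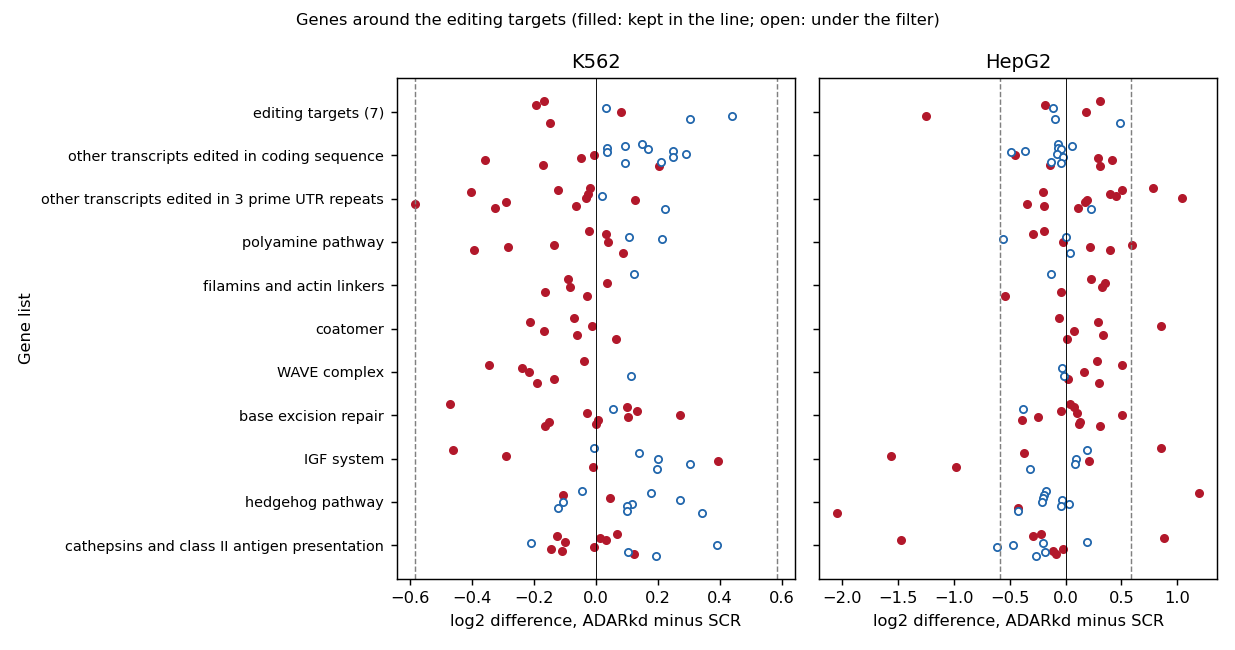
Log2 difference of ADARkd minus SCR (x axes, on different scales) for the editing targets and for the genes listed around them (y axis), in K562 on the left and HepG2 on the right; each point is a gene, filled where kept and open where under the filter, and dashed lines mark 1.5-fold. In K562 every point lies within 1.5-fold, and in HepG2 the points beyond it lie mostly in the IGF, hedgehog and cathepsin lists.

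The pathway partners of the targets were counted in the same way, and their counts in HepG2 stand beside the 12.4% higher and 5.73% lower of all kept genes. Around IGFBP7, 9 of 11 genes of the IGF system were measured. On the arrays labelled HepG2, 5 were kept, of which 2 were at least 1.5-fold lower and 1 higher: IGFBP4 (-1.56), the receptor IGF1R (-0.98) and IGFBP1 (0.85). IGFBP1 stood at 6.06 in ADARkd and 5.21 in SCR, so its dimmer side lay under the filter level. IGFBP3 differed by -0.37, IGFBP6 by 0.21 and IGFBP2, under the filter there, by 0.19. IGFBP4 stood at 5.43 in ADARkd and 6.996 in SCR there, and at 6.66 in ADARkd and 6.95 in SCR in K562. In K562 0 of 4 kept genes were 1.5-fold apart, with IGFBP2 at -0.46 and IGFBP6 at 0.39.

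Around GLI1, 3 of 11 measured hedgehog genes were kept in HepG2. CDON, a co-receptor of the ligand, differed by -2.04 and GLI3, a transcription factor of the same family, by 1.197, while GAS1, another co-receptor, differed by -0.42. CDON stood at 4.53 in ADARkd and 6.57 in SCR, so its dimmer side lay under the filter level, and GLI3 at 7.41 in ADARkd and 6.21 in SCR. Around CTSS, 7 of 13 measured cathepsins and antigen presentation genes were kept in HepG2. CTSF differed by -1.48, or -1.12 with the offset, and its dimmer side also lay under the filter level. CTSC differed by 0.88 and CTSB by -0.29. CTSV, under the filter, differed by -0.61, which was within 1.5-fold under quantile normalization (-0.52) and the offset (-0.39). CD74, the invariant chain that CTSS cleaves, and its regulator CIITA were under the filter in both lines.

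Around AZIN1, 9 of 11 polyamine genes were measured. SRM, which makes spermidine, differed by 0.60 in HepG2, an excess over 1.5-fold that was lost under quantile normalization, loess and the offset, and SMOX, which oxidises spermine, by 0.40. In K562 SMOX differed by -0.39 and SRM by -0.14. The antizyme OAZ2 differed by -0.29 in HepG2 and 0.03 in K562. Around COPA, 6 of 9 coatomer genes were measured, all kept in both lines. COPE, the epsilon subunit, was the 1 beyond 1.5-fold in HepG2 at 0.86, beside ARCN1 (0.33), COPB2 (0.29) and COPG1 (0.07). In K562 these 4 differed by -0.01, -0.06, -0.21 and -0.17.

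Around CYFIP2, the 6 kept WAVE complex genes all had negative differences in K562 (median -0.20), and the 5 kept in HepG2 all positive ones (median 0.28). Under quantile and loess normalization the medians were -0.11 and -0.13 in K562 and 0.14 and 0.13 in HepG2, and 1 gene in each line had the other sign. NCKAP1, which pairs with CYFIP proteins in the complex, differed by -0.34 in K562 and 0.51 in HepG2, BRK1 by -0.19 and 0.30, and the paralog CYFIP1 by -0.04 and 0.28, all within 1.5-fold. Among all kept genes 33.3% had a positive difference in K562 and 60.9% in HepG2. Partners of the 2 targets that were not analysed stayed within 1.5-fold without further normalization. Of 10 base excision repair genes kept in each line, the paralog NEIL3 differed by -0.47 in K562 and 0.04 in HepG2, the thymine glycosylase TDG by 0.27 and 0.50, and the endonuclease APEX1 by 0.0069 and -0.39. Of 5 actin linkers kept in each line, the integrin ITGB1 differed by -0.03 in K562 and -0.54 in HepG2, where it passed 1.5-fold under quantile (-0.70) and loess normalization (-0.70), and ACTN4 and VCL by 0.35 and 0.33 in HepG2.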

How the data were processed

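TRIzol extracts of total RNA were biotin-labelled with an Affymetrix whole-transcript kit, per the labels' protocols. The deposited table holds a linear intensity per transcript cluster for each of 4 arrays. Per the submitters' processing notes, RMA was used and the genome build was hg18; further steps and versions are not given in the sources. The 9 targets and all gene lists were chosen with earlier results of these data known.

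Of 17881 clusters, 14432 had 1 gene symbol in the platform annotation, 2408 several and 1041 none. The 197 genes with several clusters took the brightest; each measured target had 1. Values were used as log2 without an offset. Differences within a line are ADARkd minus SCR, with no test. The shared effect and K562 minus HepG2 were fitted with lmFit and trended eBayes of limma 3.58.1, run in R 4.3.3 (line and arm as terms, two-sided, Benjamini-Hochberg over all genes fitted). The code was tested on simulated data. Genes named from a list were those at least 1.5-fold apart in a line and up to 3 more with the largest difference. AZIN2 (-0.56), CTSO (-0.47) and BOC (-0.43) in HepG2 and HHIP (0.27) in K562 also met this rule. They lay under the filter in both lines and are not described above. Genes named outside this rule were picked with their values in view. Figures were drawn with matplotlib 3.10.9.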

Additional observations from a re-analysis of the deposited data

Results flagged for a closer look

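For 5 editing targets the difference between ADARkd and SCR had opposite signs in the 2 lines, which is what marked them for a closer look; with 1 array per group the difference between the lines was not tested. The K562 difference minus the HepG2 difference was 1.69 for IGFBP7, -0.64 for CTSS, -0.48 for AZIN1, 0.40 for GLI1 and 0.14 for CYFIP2, on the log2 scale. IGFBP7 was under the filter level in K562, CTSS in HepG2, and GLI1 and CYFIP2 in both lines. Opposite signs were common, at 52.9% of genes kept in both lines. Genes under the filter had a positive difference in 74.8% of cases in K562 and 41.4% in HepG2. For CYFIP2 the signs were the same after quantile normalization or loess, both negative.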

How the results depend on the processing

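The targets were recomputed with quantile normalization, cyclic loess, an offset of 16 and the mean of all clusters of a gene, and the fits also with no filter on low values, a filter at the 75th percentile and no intensity trend. The number of targets at least 1.5-fold apart stayed at 0 in K562 and 1 in HepG2 under the 4 alternatives run on it, and the shared effect called 0 genes under all 7. With the filter at the 75th percentile K562 minus HepG2 called 1159 genes in place of 2014, of 4398 tested in place of 8028, and 1 target in place of 2, since CTSS no longer entered the fit. Of the alternative values for single targets, all 111 kept their side of the threshold or moved by less than the spread of differences across genes. That spread, an SD of 0.19 in K562 and 0.47 in HepG2, is wider than most target differences, so this rule could hardly fail. CYFIP2 in K562 changed sign, from 0.03 to -0.11 under quantile normalization and -0.12 under loess. COPA in HepG2 went from -0.19 to -0.35 under loess. The shared effect, with line as a term, pairs the arms by line. A pairing by replicate number was not possible, and no replicate could be left out, because each group has 1 array and the labels give no replicate numbers. Some small differences of partner genes also changed sign under quantile and loess normalization, such as COPG1 in HepG2 (-0.06 and -0.08). Signal over background, which limits what dim targets show, was not analysed here.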

Other observations

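Several genes listed around the targets differed between the lines, all given as K562 minus HepG2 on the log2 scale. Such differences were common: 25.1% of 8028 genes kept in either line passed a limma adjusted p under 0.05 with at least a 2-fold difference. IGFBP3, the main carrier of insulin-like growth factors in plasma, differed by -4.41, IGFBP6 by -1.96 and IGFBP2 by 2.36. GLI3 differed by -3.39, the aryl hydrocarbon receptor AHR by -4.34 and SMOX by -2.38. NCKAP1L, the blood cell subunit of the WAVE complex, stood at 8.07 in ADARkd and 8.31 in SCR in K562, against 3.07 in ADARkd and 3.11 in SCR on the arrays labelled HepG2, and was chosen after its values were seen. Of these 7 genes, IGFBP3, IGFBP2, GLI3, AHR and NCKAP1L were under the filter in their dim line, so they had to differ to enter the fit and the sizes are uncertain.

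Dim and bright genes differed in both lines, in opposite directions. In K562 the median ADARkd minus SCR difference was 0.13 over 7116 genes under the filter and -0.07 over 7116 kept genes. Positive differences were found in 74.8% of the genes under the filter and 33.3% of the kept genes. On the arrays labelled HepG2 the medians were -0.04 under the filter and 0.11 over kept genes. There 41.4% of the genes under the filter and 60.9% of the kept genes had a positive difference. After quantile normalization the medians of both lines were within 0.01 of 0. The SDs of log2 values were 1.75 on the ADARkd array and 1.84 on the SCR array of K562. For HepG2 they were 1.95 on the ADARkd array and 1.88 on the SCR array.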
